A study of Mus musculus with 31 samples.

Results

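The 7 mouse genes that encode the enzymes of the KMT2 and SETD1 families (Kmt2a, Kmt2b, Kmt2c, Kmt2d, Kmt2e, Setd1a and Setd1b) were examined as targets of the mark that these families write, trimethylation of lysine 4 of histone H3 (H3K4me3). They were chosen by name from the 21887 protein-coding genes of the RefSeq annotation of mm10, and all 7 were found. A gene was counted as carrying H3K4me3 when a peak lay inside it or within 2 kb of either of its ends, and a differential region was assigned to it by the same rule. The libraries were chromatin immunoprecipitations from the hippocampus of 16 C57BL6 mice aged 30 days, 4 in each of 4 groups. Heterozygotes carried 1 copy of Kmt2d with a βGeo insertion and the wild types carried none. Both genotypes received either TAK-418 at 1 mg/kg/day or its methylcellulose vehicle alone, by oral gavage for 2 weeks from 2 weeks of age. TAK-418 inhibits LSD1, the demethylase encoded by Kdm1a. The groups were thus heterozygotes with TAK-418, heterozygotes with vehicle, wild types with TAK-418 and wild types with vehicle. All groups were gavaged, so handling was common to all of them. The labels give neither the place of the βGeo insertion nor the sex of the mice, and H3K4me3 at Kmt2d does not check the genotype.

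H3K4me3 marks the start sites of active genes. The KMT2 and SETD1 enzymes work in complexes that share the core subunits WDR5, ASH2L, RBBP5 and DPY30. KMT2C and KMT2D add a single methyl group at enhancers, KMT2A and KMT2B act at chosen sets of promoters, and SETD1A and SETD1B give much of the bulk trimethylation. KMT2E has the family's SET domain but is not known as an active H3K4 methyltransferase, and it binds H3K4me3 through its PHD finger. Loss of 1 copy of KMT2D causes most cases of Kabuki syndrome, a human disorder of growth and intellectual development.

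The peak lists differed in length more within each group than between groups, and each count of peaks below is given beside that. The index sequences fall into 4 sets, an inference made here. One library in each group had an index of set 1 or 2, and these 4 lists held 13343 to 16750 peaks. They are called the long lists. The other 12 libraries, of sets 3 and 4, had short lists of 302 to 2281 peaks. The long lists had a peak at 58.9% to 64.3% of all protein-coding genes and the short lists at 0.356% to 9.98%. In the long lists 7 to 8 of 8 genes of hippocampal neurons had a peak at an end, beside 3 to 4 of 5 for inhibitory neurons, 3 to 4 of 6 for the oligodendrocyte lineage and 0 to 3 of 5 for astrocytes. The counts were 1 to 3 of 4 for vascular cells, 1 to 2 of 4 for the choroid plexus, 0 to 1 of 5 for microglia, 0 of 4 for blood cells and 1 to 3 of 7 for the hindbrain. Peaks on the Y chromosome below 90 Mb were present in 3 heterozygote TAK-418, 2 heterozygote vehicle, 2 wild type TAK-418 and 1 wild type vehicle libraries. Among the long lists they numbered 10 in the heterozygote TAK-418, 29 in the heterozygote vehicle and 19 in the wild type TAK-418 list. The wild type vehicle long list held 0 of them and was the only long list of index set 2. The part of index set, cell makeup and sex in the values below was not tested. In a bulk sample, fewer cells of a type and less mark per cell cannot be told apart.

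All 7 enzyme genes carried H3K4me3 in each of the 4 long lists, and few of them did in the short lists. Among the 3 short lists of each group, 1 of 21 pairs of a gene and a library had a peak in heterozygotes with TAK-418, 0 of 21 in heterozygotes with vehicle, 6 of 21 in wild types with TAK-418 and 3 of 21 in wild types with vehicle. The heterozygote TAK-418 peak lay at Kmt2c in replicate 4. In wild types with TAK-418, replicate 4 had peaks at Kmt2b, Kmt2c, Kmt2d, Kmt2e and Setd1b and replicate 1 had a peak at Kmt2d. In wild types with vehicle, replicate 2 had peaks at Kmt2a, Kmt2d and Kmt2e. The 11 short-list peaks at members had a fold over local background of 4.11 to 5.19 and a −log10 q of 1.41 to 3.02. Those at Kmt2c in heterozygotes with TAK-418, and at Kmt2c and Setd1b in wild type TAK-418 replicate 4, had the lowest fold in their lists. Set beside all genes, the 5 genes marked in wild type TAK-418 replicate 4 stood beside 6.73% of all protein-coding genes and 11.7% of the genes marked in all 4 long lists, and the 3 in wild type vehicle replicate 2 beside 9.98% and 17.6%. Those 2 lists were the longest of the 12 short ones, with 1728 and 2281 peaks, while the next longest, wild type vehicle replicates 4 and 1 with 768 and 715 peaks, held no member. The lists with 1 member each, wild type TAK-418 replicate 1 and heterozygote TAK-418 replicate 4, had 563 and 536 peaks.

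Kmt2d had a peak in 7 of 16 libraries, Kmt2c and Kmt2e in 6, Kmt2a, Kmt2b and Setd1b in 5, and Setd1a in 4. With a −log10 q of at least 5, Kmt2b, Kmt2d and Setd1b had a peak in 4 libraries and the other members in 3. Of all protein-coding genes, 281 (1.28%) had a peak in 7 or more libraries and 12176 (55.6%) in 4 or more. Setd1a, which encodes a SETD1 enzyme, was the only member without a peak in any short list. The number of libraries with a peak at a member passed the test in none of the 4 comparisons (two-sided Fisher's exact test, p = 1 for each member in each, n = 4 libraries per group). The same test called 0% of 12259 genes in heterozygote against wild type vehicle, 0% of 12677 in TAK-418 against vehicle in heterozygotes, 0% of 12735 in TAK-418 against vehicle in wild types and 0% of 12647 in heterozygote TAK-418 against wild type vehicle, after Benjamini-Hochberg adjustment. The smallest p that 4 libraries against 4 allow in this test is 0.0286, and an adjusted call would need at least 57.1% of the tested genes at that p, so these counts say little. At an unadjusted p under 0.05, Fisher's exact test gave 1, 0, 0 and 1 genes in that order of comparisons.

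**Figure D1:**
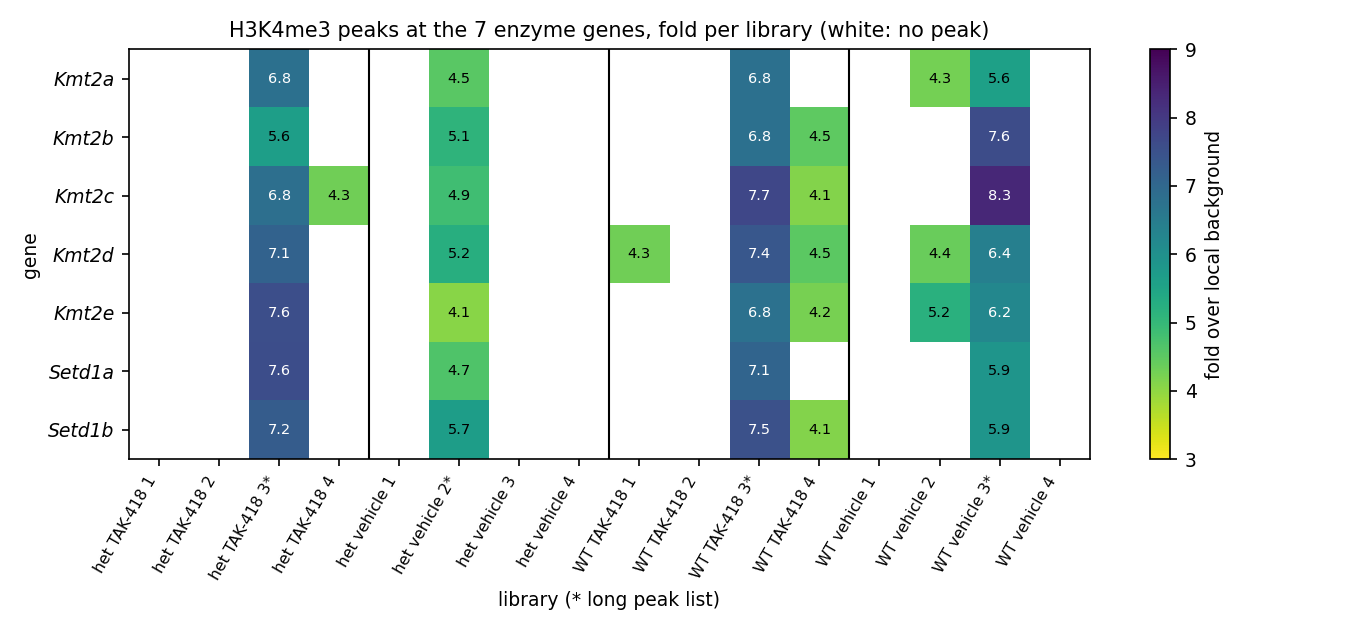
H3K4me3 peaks at the 7 genes (rows) in 16 libraries (columns, by group, an asterisk marks a long list). Each filled cell gives the authors' fold enrichment of the peak over the local background (colour scale, 3 to 9), for the peak at the marked end in long lists and the highest peak in short lists, and white cells have no peak. The 4 long lists are filled in all 7 rows, and the heterozygote vehicle short lists are empty.

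In the long lists the peaks at 5 of the 7 genes were among the widest at gene ends. The widest peak of each gene in a list was taken and is called its main peak, a choice that favours a high rank of width. Other, narrower peaks at Kmt2d and Setd1a were left out of these widths. Setd1b had peaks of 4342 bp in the heterozygote TAK-418 list, 2606 bp in the heterozygote vehicle list, 6818 bp in the wild type TAK-418 list and 3219 bp in the wild type vehicle list, a mean of 4246 ± 1859 bp (SD, n = 4 libraries, 1 per group). The wild type TAK-418 peak reached 4657 bp outside the gene, and the neighbour Rhof lay at least in part under all 4. Kmt2e peaks were 3183, 3735, 3946 and 3332 bp in the same order of groups, and Kmt2d peaks 3559, 3221, 3535 and 3630 bp. Kmt2d had the least spread of the 3 genes, with an SD of 181 bp against 1859 bp for Setd1b and 353 bp for Kmt2e. Kmt2a peaks were 3831, 2412, 3786 and 2923 bp, and Kmt2c peaks 2817, 2833, 2844 and 2253 bp. Each of these 5 genes stood at or above the 95th percentile of width among peaks at gene ends in each of the 4 lists. Kmt2b, which encodes the closest relative of KMT2A, had narrower peaks of 2341, 1637, 1580 and 1801 bp, and Setd1a had 1638, 1818, 2146 and 1249 bp. The peaks of Kmt2b and Setd1a were narrower than those of the other 5 genes in 4 of 4 lists, and stood between the 72.3rd and the 92.4th percentile. All 7 peaks were wider than the median peak at a gene end, which was 1072, 944.5, 1075 and 905 bp in that order.

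Between neighbours in the order of mean width, Kmt2c was wider than Kmt2b in 4 of 4 lists, by 847 ± 443 bp (SD, n = 4). The other neighbours did not differ beyond their spread: Setd1b over Kmt2e by 697 ± 1726 bp, Kmt2e over Kmt2d by 62.8 ± 465 bp, Kmt2d over Kmt2a by 248 ± 590 bp, Kmt2a over Kmt2c by 551 ± 665 bp and Kmt2b over Setd1a by 127 ± 602 bp. With 1 long list per group, these widths allow no test between groups. In fold enrichment over the local background, Kmt2c averaged 6.93 ± 1.52, Setd1b 6.57 ± 0.94 and Kmt2d 6.53 ± 0.95 (SD, n = 4), and the means of the other 4 genes lay between 5.92 at Kmt2a and 6.29 at Setd1a. The highest fold of any main peak, 8.34, was at Kmt2c in the wild type vehicle list. Outside the main peaks, the peak at the other end of Kmt2d reached 8.37 in the heterozygote TAK-418 list. The fold was above the library's median for 6 of 7 genes in the heterozygote TAK-418 list, 6 in the heterozygote vehicle list, 7 in the wild type TAK-418 list and 7 in the wild type vehicle list. Neighbours shared several of these peaks: Gm39326 at Kmt2a, Gm32082 and Mir3569 at Kmt2b, 4831440E17Rik at Kmt2c and 5031425E22Rik at Kmt2e lay at least in part under the peak in all 4 long lists, and which gene the mark belongs to cannot be told apart there.

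**Figure D2:**
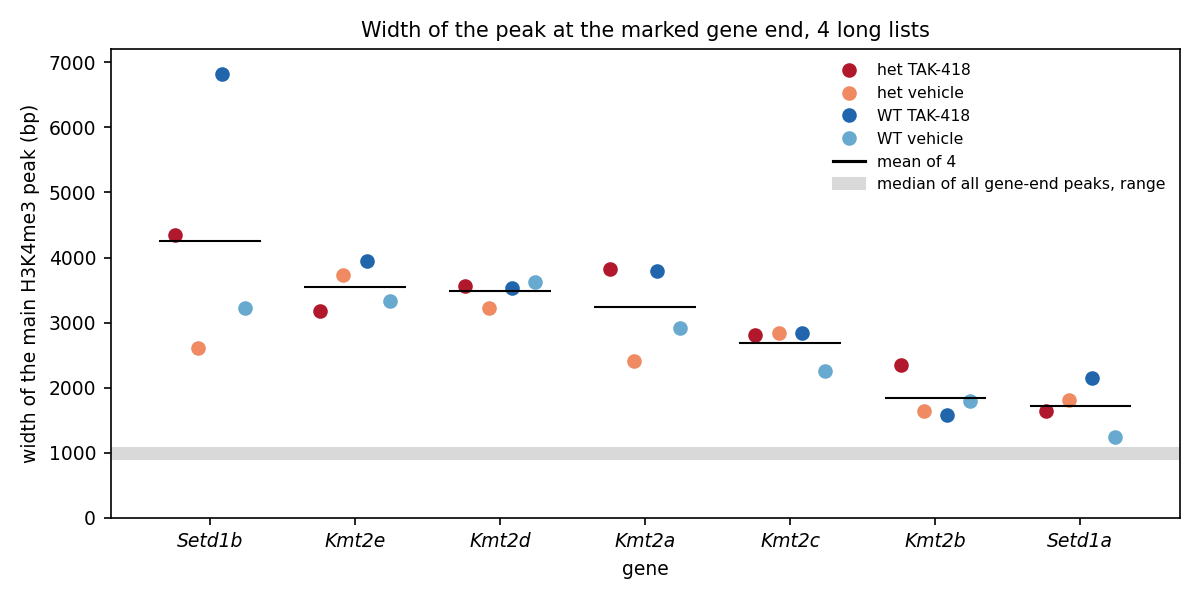
Width in bp of the H3K4me3 peak at the marked end of each gene in the 4 long lists, 1 point per group's long list, with the mean of the 4 as a line and the range of the library medians over all peaks at gene ends, 905 to 1075 bp, as a grey band. Every point lies above the band, and the points of Kmt2b and Setd1a reach at most 2341 bp.

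The promoter sequences were read for the genes with an entry in the RefSeq promoter table of GRCm38.p6 (4 of 7: Kmt2a, Kmt2c, Kmt2d and Setd1a), from 250 bases before to 50 after the start site. They are shown because the differential regions of Kmt2d divide inside its window and those of Kmt2a and Kmt2c begin just downstream of theirs. All 4 windows lay inside the H3K4me3 peak in all 4 long lists. In the Kmt2d window (chr15:98871156-98871455, minus strand) the capitals mark the 195 bases that fall in the region listed as lower in wild types with TAK-418. The first 55 bases fall in the region listed as higher in the same comparison, and 50 bases lie between them. In the Kmt2a window (chr9:44881240-44881539, minus strand) and the Kmt2c window (chr5:25498734-25499033, minus strand) the capitals mark the GC box, GGGCGG, on either strand. Setd1a (chr7:127777139-127777438, plus strand), shown as a member with no listed region, has no GC box and so no capitals.
Kmt2d: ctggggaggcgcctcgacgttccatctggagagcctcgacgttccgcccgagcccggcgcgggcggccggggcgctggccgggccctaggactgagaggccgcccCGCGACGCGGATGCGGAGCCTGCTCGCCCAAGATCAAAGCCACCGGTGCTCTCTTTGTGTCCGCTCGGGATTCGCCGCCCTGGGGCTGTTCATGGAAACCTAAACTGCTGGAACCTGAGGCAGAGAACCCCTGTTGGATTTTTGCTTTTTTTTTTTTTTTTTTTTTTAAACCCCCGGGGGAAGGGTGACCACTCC
Kmt2a: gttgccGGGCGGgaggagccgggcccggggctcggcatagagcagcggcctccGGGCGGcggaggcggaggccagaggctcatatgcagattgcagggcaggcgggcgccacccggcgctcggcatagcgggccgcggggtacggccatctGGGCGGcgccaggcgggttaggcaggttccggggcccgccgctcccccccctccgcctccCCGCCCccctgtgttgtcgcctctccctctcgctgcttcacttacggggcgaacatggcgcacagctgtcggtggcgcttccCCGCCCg
Kmt2c: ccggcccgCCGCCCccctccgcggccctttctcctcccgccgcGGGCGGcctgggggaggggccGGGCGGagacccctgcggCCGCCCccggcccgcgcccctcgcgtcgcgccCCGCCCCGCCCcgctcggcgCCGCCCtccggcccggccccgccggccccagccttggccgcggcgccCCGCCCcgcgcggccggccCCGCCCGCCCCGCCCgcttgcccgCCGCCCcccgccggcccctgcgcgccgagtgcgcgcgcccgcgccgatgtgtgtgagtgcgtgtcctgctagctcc
Setd1a: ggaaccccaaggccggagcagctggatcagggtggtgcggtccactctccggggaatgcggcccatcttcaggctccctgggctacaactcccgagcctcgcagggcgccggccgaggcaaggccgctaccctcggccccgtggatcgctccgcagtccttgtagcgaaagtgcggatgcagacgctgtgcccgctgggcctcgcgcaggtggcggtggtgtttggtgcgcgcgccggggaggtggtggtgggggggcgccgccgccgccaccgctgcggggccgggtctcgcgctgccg

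The window of Kmt2c was 88% G or C with 56 CpG dinucleotides, that of Kmt2a 75.7% with 36, that of Setd1a 73.7% with 35 and that of Kmt2d 62.7% with 27. The median over 21263 promoters was 56.3% with 13 CpG dinucleotides. Kmt2c held the GC box letters at 12 places, which overlap in part, Kmt2a at 5, Kmt2d at 4 and Setd1a at 0, and 46.2% of all promoters held at least 1. None of the 4 windows held the letters CCAAT (38.2% of all promoters), CACGTG (7.84%), TGACGTCA (2.23%), CCGGAAGT (5.15%), TATAAA (12.6%), AAGATGGC (3.05%) or GCATGCGC (3.52%), searched on both strands. These matches describe letters in the window only.

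The authors' deposited lists of differential H3K4me3 regions held 13 regions at 5 of the 7 genes, 9 listed as lower and 4 as higher, and none at Kmt2b or Setd1a. Regions of the same gene overlapped between comparisons at Kmt2a, Kmt2c, Kmt2d and Kmt2e, so the 13 are not separate stretches. All 9 listed as lower came from comparisons with the same wild type vehicle mice. The regions were 300 to 850 bp long, and each lay inside the peak of all 4 long lists. Each region carries 4 whole-number scores per group, taken here as the authors' normalized read values, and the labels do not say which library gave which score. The scores of both groups overlapped at all 13 regions, and no region passed limma with Benjamini-Hochberg adjustment over its whole list (adjusted p between 0.575 and 0.797, unadjusted p of at least 0.0970). Exact permutation tests gave two-sided p-values between 0.314 and 0.714, where the smallest that 4 scores against 4 allow is 0.0286. All regions of a list had already been picked by the authors for a difference between the same groups. The p-values and shares of regions called, here and below, are therefore not calibrated and serve as description only. The authors' deposited table gives these 13 regions a −log10 p between 1.36 and 3.29, so the authors' test and the spread between the scores differ, and how the authors' p was made is not given in the sources used here. Only TAK-418 against vehicle in heterozygotes is without the wild type vehicle mice, and each of its groups enters another comparison, so values of the comparisons are set side by side only. Within a group, 1 of the 4 score positions was high at nearly every member region: position 3 was the highest at 5 of 5 regions in heterozygotes with TAK-418, position 2 at 3 of 3 in heterozygotes with vehicle, position 3 at 6 of 6 in wild types with TAK-418 and position 3 at 11 of 12 in wild types with vehicle. In 4 of 4 groups this position has the same number as the replicate with the long list, when replicates are numbered in accession order. The labels do not name the library behind a position, and the part of the long-list libraries in the score differences was not tested.

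Kmt2d, the gene interrupted in the heterozygotes, had the most listed regions, 4, all of them around its start site at chr15:98871205. In heterozygote against wild type vehicle the region chr15:98870951-98871650, which spans the start site, had scores of 97, 182, 15 and 62 in heterozygotes, against 55, 152, 175 and 176 in wild types. Only 1 heterozygote score exceeded the wild type mean, and the groups overlapped. The means were 89 ± 70.5 in heterozygotes and 139.5 ± 57.4 in wild types (SD, n = 4 each), a ratio of 0.638, and the difference was −0.97 ± 0.77 on the log2(score + 1) scale (SE; limma adjusted p = 0.575, exact permutation p = 0.371). It was −0.31 when each score position was divided by its median over the list, and −0.30 without the heterozygote score of 15. For heterozygote TAK-418 against wild type vehicle, nearly the same stretch (chr15:98870851-98871700) scored 93, 59, 313 and 65 in heterozygotes with TAK-418, against 78, 217, 269 and 242 in wild types with vehicle. The score of 313 was above every wild type vehicle score, while the other 3 were below 3 of the wild type vehicle scores. The log2 difference was −0.82 ± 0.87 (SE; limma adjusted p = 0.613, exact permutation p = 0.429). It was −0.14 after the same scaling, and −1.35 without the score of 313. No Kmt2d region was listed for TAK-418 against vehicle in heterozygotes.

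In TAK-418 against vehicle in wild types, Kmt2d had a pair of adjacent regions that were listed in opposite directions, 50 bp apart. The region over the start site, from 145 bp upstream to 354 bp downstream (chr15:98870851-98871350), scored 16, 45, 124 and 56 in wild types with TAK-418, against 14, 119, 162 and 157 in wild types with vehicle. It was listed as lower, with means of 60.3 ± 45.7 and 113 ± 68.7 (SD, n = 4 each) and a log2 difference of −0.76 ± 0.80 (SE; limma adjusted p = 0.779, exact permutation p = 0.314). Leaving out 1 score at a time gave −1.58 to −0.26. The region from 1045 to 196 bp upstream (chr15:98871401-98872250) scored 222, 132, 576 and 216 in wild types with TAK-418, against 181, 188, 305 and 148 in wild types with vehicle. It was listed as higher, with means of 287 ± 197 and 206 ± 68.6 (SD, n = 4 each) and a log2 difference of 0.31 ± 0.73 (SE; limma adjusted p = 0.790, exact permutation p = 0.6), which became −0.097 without the TAK-418 score of 576. Taking the score positions of both regions in the same order, the upstream score was 2.93 to 13.9 times the start site score in wild types with TAK-418 (median 4.25) and 0.943 to 12.9 times in wild types with vehicle (median 1.73). The ranges of this ratio overlapped, and it was given no test because the pair was picked from the list.

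The short lists placed their Kmt2d peaks in the same way. The peaks of wild type TAK-418 replicates 1 and 4 lay 867 to 228 bp and 872 to 507 bp upstream of the start site, wholly within the region listed as higher. The peak of wild type vehicle replicate 2 ran from 194 bp upstream to 360 bp downstream, and 90.1% of it lay in the region listed as lower. These are the same libraries that gave the scores, so the peaks are no separate evidence. In the long lists a single peak covered the whole stretch, from at most 1586 bp upstream to at most 2137 bp downstream. The start site lies 2872 bp inside the annotated end of the gene. At the other end of Kmt2d each long list had a separate, narrower peak of 977 bp in heterozygotes with TAK-418, 616 bp in heterozygotes with vehicle, 820 bp in wild types with TAK-418 and 904 bp in wild types with vehicle, which overlapped the neighbour Prkag1.

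**Figure D3:**
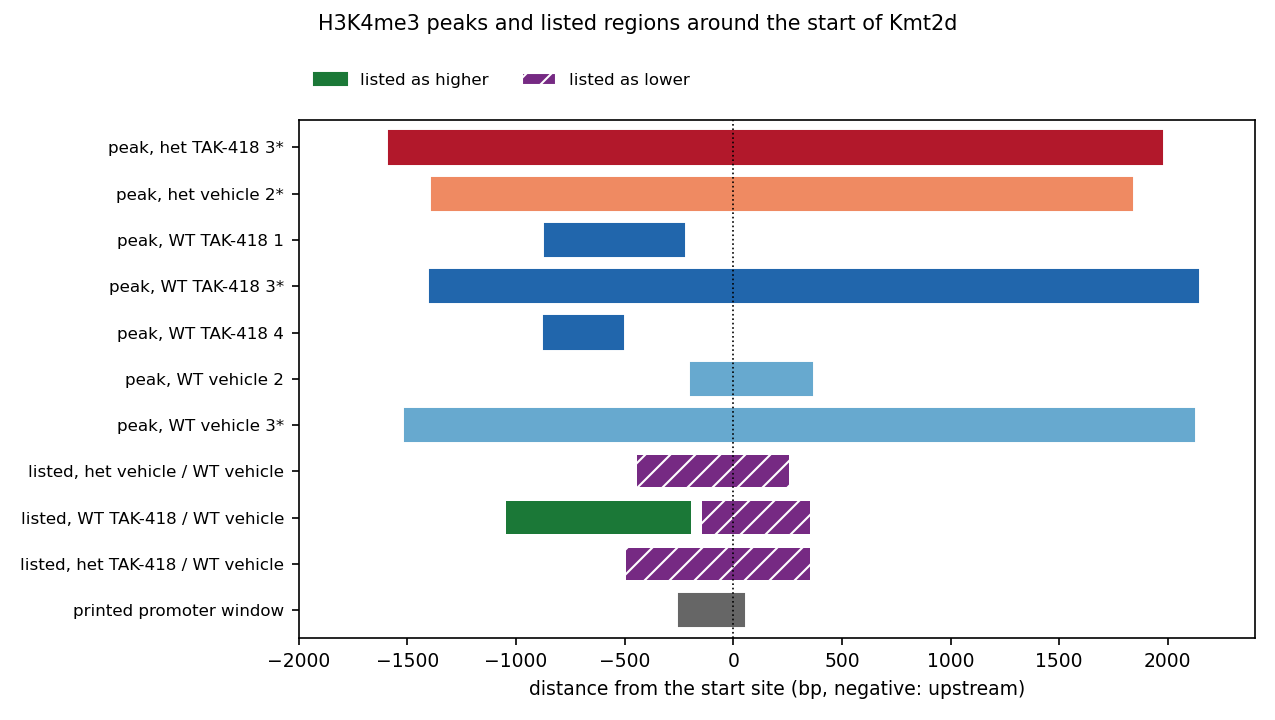
Peaks (1 row per library with a peak near the start, an asterisk marks a long list) and listed regions (1 row per comparison, green for higher and hatched purple for lower) by distance in bp from the Kmt2d start site, with the printed promoter window in grey. The short-list peaks of wild types with TAK-418 end 228 and 507 bp upstream, and that of wild types with vehicle spans the start site.

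Kmt2c encodes the closest relative of KMT2D, which works in the same type of complex. Its regions lay just inside the gene, 133 to 932 bp and 83 to 882 bp downstream of the start site, and were listed as lower in both comparisons of a TAK-418 group with wild type vehicle. In wild types with TAK-418 (chr5:25497851-25498650) the scores were 32, 113, 344 and 175, against 104, 117, 488 and 129 in wild types with vehicle. The vehicle score of 488 stood far above the other 3, and the log2 difference of −0.45 ± 0.78 (SE; limma adjusted p = 0.779, exact permutation p = 0.657) became 0.069 without it and 0.19 without the TAK-418 score of 32. In heterozygotes with TAK-418 (chr5:25497901-25498700) the scores were 69, 64, 355 and 168, against 108, 114, 486 and 117 in wild types with vehicle. That difference of −0.35 ± 0.87 (SE; limma adjusted p = 0.735, exact permutation p = 0.714) became 0.17 without the score of 486, and 0.33 when each score position was divided by its median over the list.

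Setd1b encodes a SETD1 enzyme, and its regions were listed as lower in the same pair of comparisons, at places 350 bp apart. The region of wild types with TAK-418 (chr5:123141751-123142050), across the lower end of the gene, scored 51, 1, 114 and 19, against 34, 36, 130 and 86 in wild types with vehicle. Its log2 difference of −1.49 ± 0.87 (SE; limma unadjusted p = 0.0970, adjusted p = 0.779, exact permutation p = 0.486) became −0.33 without the TAK-418 score of 1. It was −0.87 with a pseudocount of 10. The mean score of this region exceeded only 4.46% of those in its list, so the difference rests on low scores. The region of heterozygotes with TAK-418 (chr5:123142401-123142800), inside the gene, scored 48, 4, 164 and 75, against 93, 65, 153 and 120 in wild types with vehicle. There 1 of 4 heterozygote TAK-418 scores was above the wild type vehicle mean, and the log2 difference was −1.31 ± 0.87 (SE; limma adjusted p = 0.613, exact permutation p = 0.4), or −0.68 when each score position was divided by its median. This difference became −0.29 without the TAK-418 score of 4. Leaving out 1 score at a time gave −2.28 to −0.33 in wild types and −1.97 to −0.29 in heterozygotes.

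Kmt2a was the only gene of the 7 with a region listed as higher with TAK-418 in both genotypes, on overlapping stretches just downstream of its start site. In heterozygotes (chr9:44880701-44881100) the scores were 52, 23, 215 and 71 with TAK-418, against 39, 101, 51 and 37 with vehicle. The mean of 90.3 ± 85.5 with TAK-418 against 57 ± 30.0 with vehicle (SD, n = 4 each) rested on the score of 215, without which the log2 difference of 0.32 ± 0.86 (SE; limma adjusted p = 0.784, exact permutation p = 0.629) became −0.24. It was 0.13 when each score position was divided by its median. In wild types (chr9:44880751-44881150) the scores were 139, 65, 234 and 38 with TAK-418, against 31, 89, 135 and 93 with vehicle. The difference of 0.30 ± 0.76 (SE; limma adjusted p = 0.797, exact permutation p = 0.6) became −0.13 without the TAK-418 score of 234 and −0.13 without the vehicle score of 31. Whether the effects of TAK-418 in both genotypes differ was not tested.

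Kmt2e, the family member without known methyltransferase activity, was listed in both directions within the stretch 1465 to 2164 bp inside its lower end. The region listed as higher overlapped the 2 listed as lower, in other comparisons, by 100 and 50 bp. In heterozygote against wild type vehicle (chr5:23434701-23435200) the scores were 43, 113, 101 and 32 in heterozygotes, against 38, 153, 188 and 87 in wild types. No heterozygote score reached the wild type mean of 117, and the log2 difference was −0.64 ± 0.69 (SE; limma adjusted p = 0.599, exact permutation p = 0.343), or 0.019 when each score position was divided by its median over the list. In heterozygote TAK-418 against wild type vehicle (chr5:23434751-23435200) the scores were 79, 38, 191 and 62, against 37, 174, 215 and 99, with a log2 difference of −0.48 ± 0.87 (SE; limma adjusted p = 0.662, exact permutation p = 0.486), or 0.19 after the same scaling. The region listed as higher in wild types with TAK-418 (chr5:23434501-23434800) scored 73, 37, 192 and 53 with TAK-418, against 38, 47, 112 and 47 with vehicle. That difference of 0.38 ± 0.74 (SE; limma adjusted p = 0.779, exact permutation p = 0.571) became −0.081 without the TAK-418 score of 192.

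**Figure D4:**
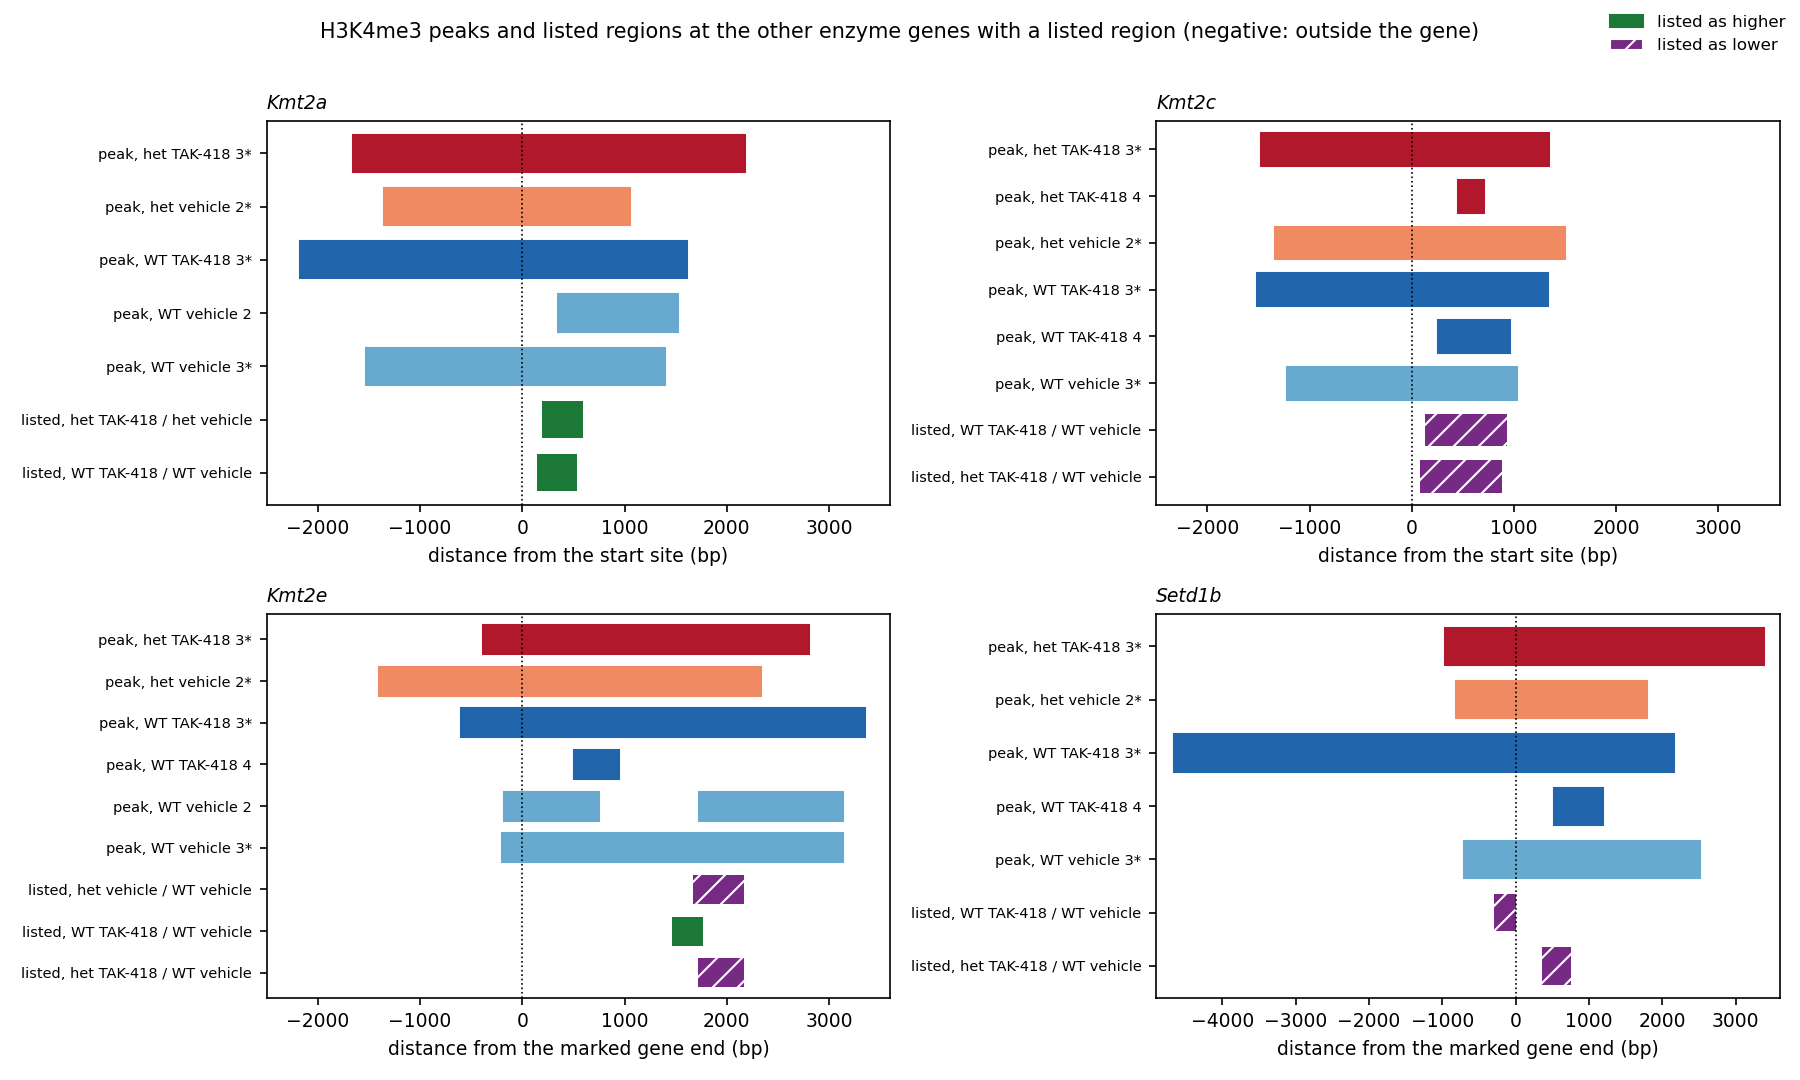
Peaks and listed regions at Kmt2a, Kmt2c, Kmt2e and Setd1b, drawn by distance in bp from the start site (Kmt2a, Kmt2c) or from the gene end that carries the peak (Kmt2e, Setd1b), with negative values outside the gene. Rows are libraries with a peak (an asterisk marks a long list) and comparisons with a listed region, green for higher and hatched purple for lower. Each listed region lies inside the 4 long-list peaks.

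**Figure D5:**
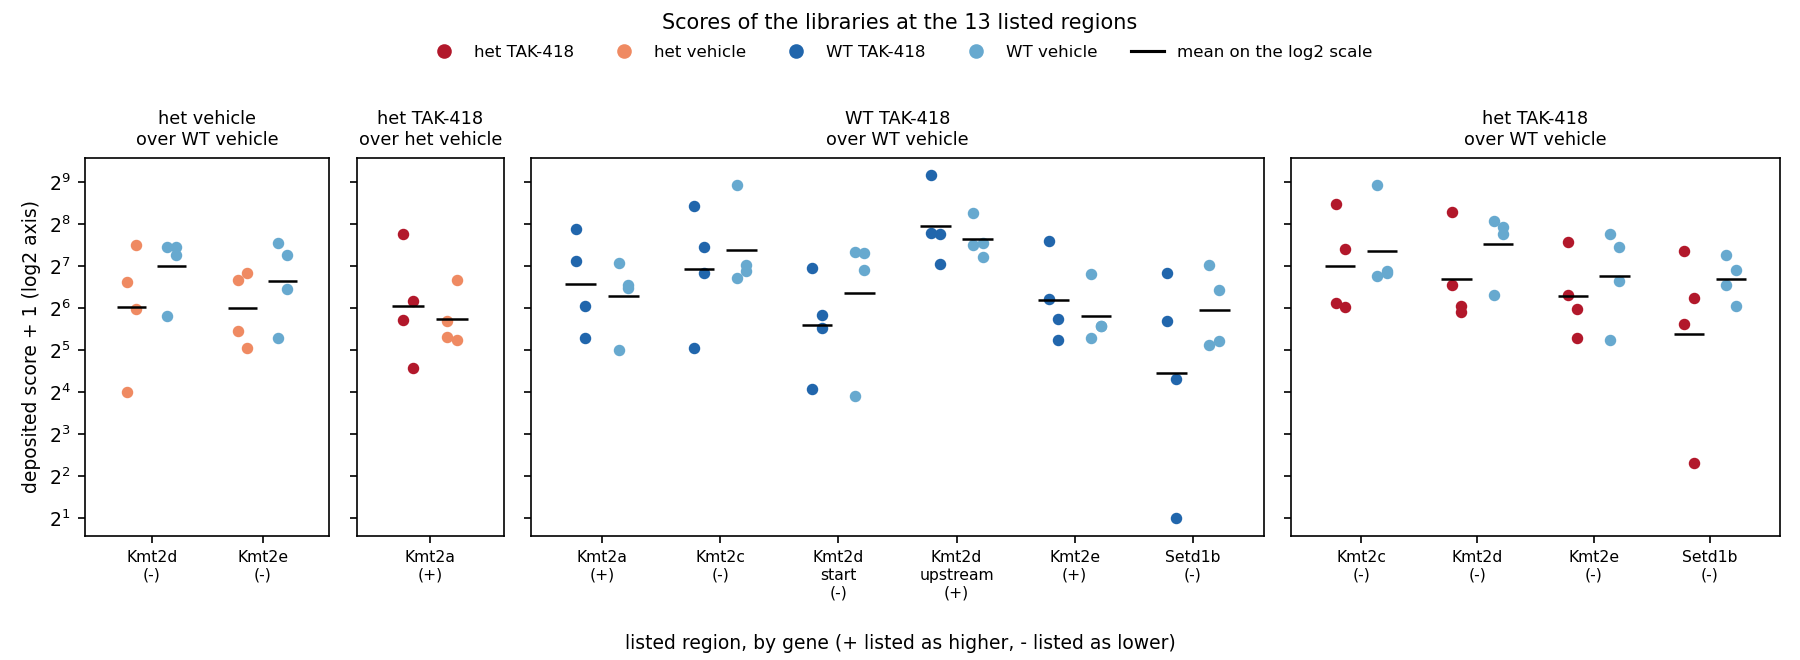
Deposited scores plus 1 (log2 axis) at the 13 regions, 1 point per score, 4 per group, with lines at the mean on the log2 scale. Panels are comparisons and pairs of columns are regions, marked + where listed as higher and − where listed as lower. The points of both groups overlap at every region.

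The members' counts stand here beside those of all genes with the mark, for which the background was the 12176 genes with a peak in at least 4 libraries, among them all 7 members. Over the 4 lists 5 of 7 members had a listed region in at least 1 comparison, beside 34.7% of the background genes. In heterozygote against wild type vehicle 2 of 7 members had a region listed as lower and 0 as higher, beside 14.1% and 0.78% of the background genes. With TAK-418 against vehicle in heterozygotes, 1 of 7 was listed as higher and 0 as lower, beside 4.92% and 4.29%. With TAK-418 against vehicle in wild types, 3 of 7 were listed as higher and 3 as lower, with Kmt2d in both counts, beside 12.1% and 8.86%. For heterozygote TAK-418 against wild type vehicle, 4 of 7 were listed as lower and 0 as higher, beside 18.1% and 1.84%. The part of peak width in these counts was not tested. The groups did not overlap at 0 of the 13 member regions, beside 2.03% of 2015 regions in heterozygote against wild type vehicle, 0.35% of 1715 in TAK-418 against vehicle in heterozygotes, 0.54% of 2780 in TAK-418 against vehicle in wild types and 0.404% of 2722 in heterozygote TAK-418 against wild type vehicle. The limma test with Benjamini-Hochberg adjustment called 0%, 0%, 0% and 0.294% of those regions in the same order, and 82, 17, 66 and 174 had an unadjusted p under 0.05. The 8 regions called in heterozygote TAK-418 against wild type vehicle did not include a member.

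The median log2 difference of the member regions was −0.81 over 2 regions in heterozygote against wild type vehicle, 0.32 over 1 in TAK-418 against vehicle in heterozygotes, −0.073 over 6 in TAK-418 against vehicle in wild types and −0.65 over 4 in heterozygote TAK-418 against wild type vehicle. Over all regions of the same lists the medians were −0.72, 0.57, 0.32 and −0.78. Dividing each score position by its median over the list moved these list medians to −0.061, 0.38, 0.24 and −0.11, so a difference at a member is given here beside that of its list.

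Of 16 genes for subunits of the same complexes, 11 had a listed region in at least 1 comparison, and of 6 genes for H3K4 demethylases 3 did, beside the 34.7% of background genes given above. None of their 30 regions passed limma with Benjamini-Hochberg adjustment (adjusted p between 0.575 and 0.943), and the groups overlapped at all 30. In heterozygote against wild type vehicle 3 subunit genes (Dpy30, Hcfc2 and Pagr1a) and 3 demethylase genes (Kdm1a, Kdm5a and Kdm5b) were listed as lower and none as higher, beside 14.1% and 0.78% of background genes. PAGR1A belongs to the KMT2C and KMT2D complexes, and Pagr1a had the lowest ratio of the 30 regions, 0.351, with scores of 3, 39, 14 and 22 in heterozygotes with vehicle against 25, 26, 67 and 104 in wild types with vehicle (log2 difference −1.63, limma adjusted p = 0.575, exact permutation p = 0.143). The mean score of this region exceeded only 1.94% of those in its list, so the ratio rests on low scores. Kdm1a, which encodes the target of TAK-418, was listed as lower in heterozygotes with vehicle and in heterozygotes with TAK-418, both against wild type vehicle. Its scores were 98, 108, 49 and 40 in heterozygotes with vehicle, against 37, 73, 178 and 136 in wild types with vehicle. In heterozygotes with TAK-418 they were 83, 105, 306 and 73, against 68, 150, 354 and 254 in wild types with vehicle, on a longer stretch of the gene. In TAK-418 against vehicle in heterozygotes Bod1, Hcfc2 and Kdm5b were listed as higher and Wdr5 as lower. Hcfc2 had 2 regions in that list, and at one of them the log2 difference was −0.099, against the listed direction. In TAK-418 against vehicle in wild types Bod1, Ncoa6, Paxip1 and Psip1 were listed as higher, and Dpy30, Men1, Kdm5a and Kdm5b as lower. The list of heterozygote TAK-418 against wild type vehicle had Ash2l, Bod1l, Dpy30, Men1, Ncoa6, Kdm1a, Kdm5a and Kdm5b as lower, Bod1 as higher, and Hcfc2 in both directions at separate regions. Dpy30, a core subunit, was the gene with the smallest unadjusted p of the 30 (limma, 0.0529) in the last of these comparisons, with scores of 38, 17, 193 and 7 in heterozygotes with TAK-418 against 55, 84, 183 and 134 in wild types with vehicle. The Dpy30 regions lay inside the gene, 7194 to 7444 bp from its nearer end, and the Ash2l region 6894 bp from its own. Neither gene had a peak at an end in any long list. Some Hcfc2 regions lay 31915 to 32115 bp from the nearer end. Which gene the mark belongs to at these regions was not tested.

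The genes most like Kmt2d across the 16 H3K4me3 libraries were Thap2 and Zfc3h1, at a Euclidean distance of 0.391 in log2(1 + highest fold), and Rnf157, at 0.425. In both heterozygote long lists the highest Kmt2d fold came from the peak at its other end, which overlapped Prkag1. That fold was 8.37 with TAK-418 and 7.06 with vehicle, against 7.11 and 5.24 for the peak at the start site. Thap2 and Zfc3h1 are neighbours with 363 bp between their ends and had the same distance. Among the other members the nearest was Kmt2e, at 2.51. In all, 20 other genes had a peak in exactly the 7 libraries in which Kmt2d had one. In the H3K4me1 libraries (15, with 88 to 456 peaks each) no member had a peak, and the 4 H3K4me1 lists, of 781, 545, 538 and 656 regions, held 0 member regions. With 33 to 104 genes marked per H3K4me1 library, these lists say little about any given gene.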

How the data were processed

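H3K4me3 (16 libraries) and H3K4me1 (15 libraries) were measured by ChIP-seq in the hippocampus of 16 mice, with antibodies from Abcam per the labels. Per the submitters' processing notes, MACS2, MACS and bedtools were used on mm10, without versions. The aligner and thresholds are not given in the sources used here. In a peak list the deposited values are a ratio (the fold over local background) and a −log10 p and −log10 q from the authors' caller. Each deposited differential region carries 1 whole-number score per library and the authors' −log10 p. The mark of the 4 H3K4me1 region lists was inferred from the number of scores per group. The files hold no read counts, so depth and the precision of a single value are unknown, and only the spread between mice is measured.

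Genes and promoter sequences came from RefSeq (GRCm38.p6). Scores were tested as log2(score + 1) with limma 3.58.1 in R 4.3.3, each list fitted whole with Benjamini-Hochberg adjustment at 0.05, and with two-sided exact permutation tests. In heterozygote TAK-418 against wild type vehicle limma gave all regions the same standard error. Peak presence was tested by Fisher's exact test where at least 2 of the compared libraries had a peak and at least 2 had none. Other steps used scipy 1.17.1, pandas 2.3.3 and numpy 2.4.6 under Python 3.11.15, with figures from matplotlib 3.10.9. The steps were tested on simulated data, for the scores with a noise SD of 0.15 on the log2 scale. The standard errors of the log2 differences at the members were 0.69 to 0.87, so the simulation says nothing about power here.

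All 7 members were named with every listed region, together with subunit and demethylase genes that have a listed region and the 3 genes nearest to Kmt2d. Members, lists and tests were chosen with earlier results of these data known. Alternatives were other flanks and overlaps, a stricter p or q, a pseudocount of 10, scores divided by the median of their position, limma with trend, a mean score of at least 20, index sets 3 and 4 alone, and leaving out each score.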

Additional observations from a re-analysis of the deposited data

Results flagged for a closer look

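Of 30 groups of 4 values examined for a single outlying value (Dixon's test), 6 held one. Chance gives about 1 in 20 for independent, normally distributed values. These groups share mice across comparisons and overlapping regions, and some hold small counts, so that rate is no fair yardstick. The score of 488 at Kmt2c and of 112 at Kmt2e stood apart in wild type vehicle in the comparison with wild type TAK-418. In heterozygote TAK-418 against wild type vehicle the score of 313 stood apart at Kmt2d in heterozygotes with TAK-418, and the score of 486 at Kmt2c in wild types with vehicle. The Kmt2c regions overlap and share the wild type vehicle mice, so their outlying scores are not independent. The number of members with a peak was 7 in the 1 long-list library of heterozygotes with TAK-418 and 7 in that of heterozygotes with vehicle, beside 0 or 1 in their other libraries. These 2 libraries had another index set than the rest of their groups.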

How the results depend on the processing

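No paired analysis was possible because the replicate numbers were given in accession order and the groups are different mice. The number of listed regions at the members was the same with flanks of 5 kb or 0 kb and with a stricter overlap (0.5 of the region inside). With a −log10 p of at least 2 in the authors' deposited lists it was 2 in heterozygote against wild type vehicle, as before, but 0 in TAK-418 against vehicle in heterozygotes, 2 in TAK-418 against vehicle in wild types and 1 in heterozygote TAK-418 against wild type vehicle. The 8 regions called by limma in heterozygote TAK-418 against wild type vehicle became 0 with a pseudocount of 10, 0 with scores divided by the median of their position and 0 with a trend, and 0 to 11 when a score was left out. Leaving out a score gave 0 to 1 calls in TAK-418 against vehicle in heterozygotes and 0 to 3 in TAK-418 against vehicle in wild types. The causes were not tested.

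At the 13 member regions a pseudocount of 10 reversed 0 log2 differences and leaving out the highest score of each group, an alternative chosen after seeing the data, reversed 0. The latter gave 0.071 at Kmt2a in TAK-418 against vehicle in heterozygotes, and −0.31 at Kmt2c in heterozygote TAK-418 against wild type vehicle. In TAK-418 against vehicle in wild types it gave 0.11 at the upstream Kmt2d region, 0.25 at Kmt2e, −0.43 at Kmt2c and 0.14 at Kmt2a. Division by the median of the score position reversed 3: Kmt2e in heterozygote against wild type vehicle (0.019), and Kmt2e (0.19) and Kmt2c (0.33) in heterozygote TAK-418 against wild type vehicle, and brought Kmt2d closer to 0 in both of these comparisons (−0.31 and −0.14). In TAK-418 against vehicle in wild types the same division moved the regions listed as lower further from 0: Setd1b to −1.61, Kmt2d at the start site to −0.84 and Kmt2c to −0.53. Those listed as higher there moved closer to 0: upstream Kmt2d to 0.23, Kmt2e to 0.30 and Kmt2a to 0.22. Leaving out 1 score reversed 8 of 104 fits, at 6 regions. In TAK-418 against vehicle in heterozygotes Kmt2a ranged from −0.24 to 0.82. In TAK-418 against vehicle in wild types the upstream Kmt2d region ranged from −0.097 to 0.61, Kmt2e from −0.081 to 0.72, Kmt2c from −0.94 to 0.19 and Kmt2a from −0.13 to 0.73. For heterozygote TAK-418 against wild type vehicle, Kmt2c ranged from −0.84 to 0.17. No adjusted p fell below 0.0989 in these fits. With a −log10 q of at least 5, 15 of 28 differences in libraries with a peak moved and 0 reversed. Within index sets 3 and 4 alone the 28 differences could not change, since each group loses 1 library with all 7 members. Fisher's exact test called 0 genes with peaks at an end only and 0 in sets 3 and 4, where 3 libraries against 3 cannot give a p below 0.1.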
